A study of Rattus norvegicus with 2 samples.

Results

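This account covers 38 genes of the synapse and of transmitter release in neural stem cells of the rat hippocampus, precursors that divide and give rise to neurons and glia, after exposure to the inhaled anaesthetic sevoflurane. The members were listed by function, but with earlier results of these data known. They are vesicle and fusion proteins, and the enzymes and transporters that make transmitter and load it into vesicles. Adhesion proteins and scaffolds on either side of the synaptic cleft are included, and ion channels and receptors were left out. A microarray probe belonged to a member when its accession was a RefSeq mRNA of that gene. In this way 36 of the 38 genes had a probe (45 probes in all, of 14266 named probes for 13882 genes), and 30 were well above background on both arrays, of 10022 such genes. Snap25 and Homer1 had no matched probe.

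The cells came from Sprague-Dawley rats at postnatal day 3, grew without serum but with bFGF, and were used at passage 3. The treated cells were exposed to 2.4% sevoflurane for 6 h and the control cells to 0% sevoflurane for the same time, and both then spent 24 h in an ordinary incubator with 5% CO2. Other labels name only the 6 h time, so the time of harvest is uncertain. There was 1 Cy3 array per group, and the sources used here do not settle whether an array holds a single culture or a pool of cultures. No difference below therefore has a replicate check, no p-value is given, and the size of a difference is described with a rule of at least 2-fold, which is 1 log2 unit.

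Transmitter release begins when a vesicle loaded by a transporter docks at the active zone, a protein scaffold under the presynaptic membrane. Priming factors and complexins hold the vesicle ready, calcium entering through channels is sensed by synaptotagmins, and the SNARE proteins of vesicle and membrane zip together and fuse the membranes. Neurexins on the presynaptic side bind neuroligins on the other, where scaffolds of the DLG, SHANK and gephyrin families hold receptors in place. These genes are textbook features of neurons. In a stem cell culture their RNA can come from cells that are differentiating, and in bulk RNA fewer such cells and less RNA per cell cannot be told apart.

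A value called a signal below is the background-corrected brightness of a probe in arbitrary units, not scaled between arrays. A difference is sevoflurane minus control in log2 units, after each array was set to its own upper quartile, a signal of 362.9 for sevoflurane and of 691.8 for the control. A probe with a signal of 100 on both arrays would thus come out higher after sevoflurane. The scanner software's own error on a member's difference was between 0.20 and 0.29, and the median SD between the probes of a gene was 0.11 (236 genes). Both are technical errors that leave out differences between cultures. Of the 5 members with more than 1 measured probe, Syn2, Dlg4 and Pclo had probes much further apart than 0.11, as given below. Another limit is that 30 members had 1 probe. Every member probe had 1 spot, except a Dlg4 probe with 10, so most differences rest on 1 spot per array.

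Of the 30 measured members, 17 were lower in the sevoflurane sample by at least 2-fold, 2 were higher and 11 lay within 2-fold. Among all measured genes 11.5% were lower and 27.9% higher. The median of the members was -1.29, beside 0.25 for all measured genes. After quantile normalization 18 members were lower, against 19.6% of all genes, and after a correction for the dependence of the difference on level 18 were lower, against 15.5%. Of the 30 members, 10 were among the lowest 1% of all measured genes and 14 among the lowest 5%.

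**Figure D1:**
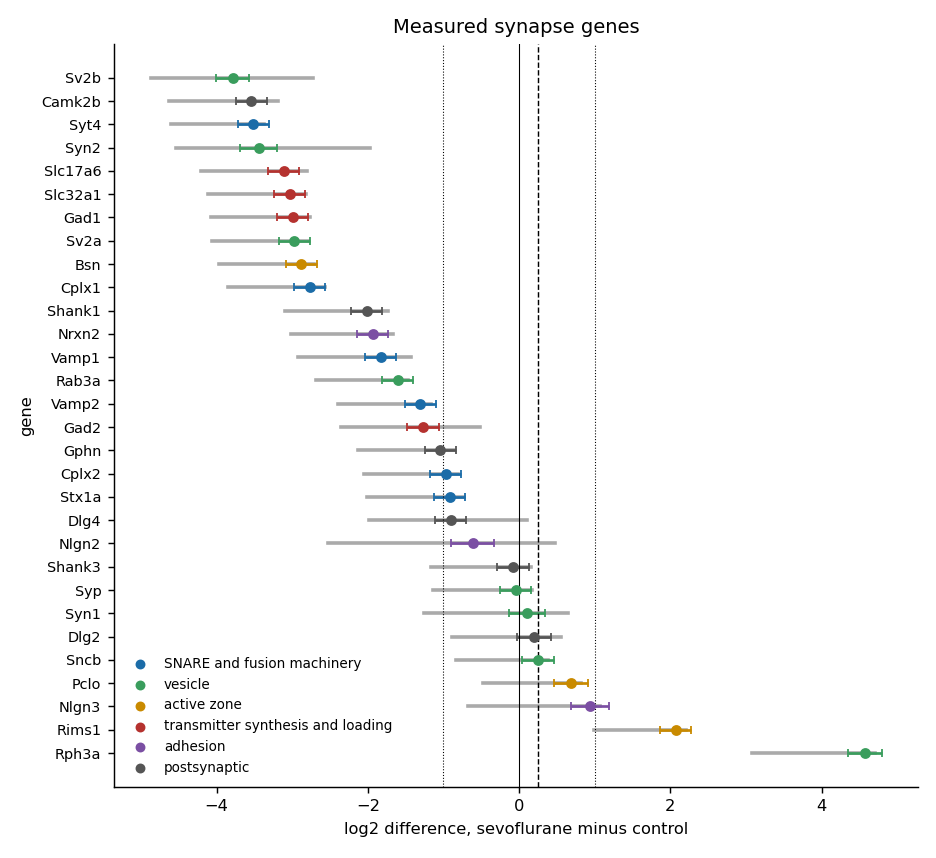
Difference of each measured member, sevoflurane minus control in log2 units, ordered from lowest to highest and coloured by role. Points are the values used in the text with the scanner software's error as whiskers, grey bars span the 11 settings tried (10 for some dim genes), dotted lines mark 2-fold and the dashed line is the median of all measured genes (0.25); Sv2b is lowest at -3.79, and Rims1 and Rph3a are the 2 members above the upper dotted line.

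The genes that make and load transmitter showed the most uniform pattern: all 4 measured members were lower by at least 2-fold. Slc17a6, a vesicular glutamate transporter, had a signal of 175.3 after sevoflurane and 2891 in the control, a difference of -3.11 (8.65-fold lower). Slc32a1, the vesicular transporter of GABA and glycine, read 238.6 and 3720, a difference of -3.03. Gad1, a glutamate decarboxylase that makes GABA, read 323.8 and 4911, a difference of -2.99. A gene of excitatory transmission and 2 genes of inhibitory transmission thus differed by nearly the same amount, with less than 0.2 between them and a software error of 0.20 on each. Gad2, the other glutamate decarboxylase, read 48.5 and 222.5, a difference of -1.27, which was -0.52 with another background correction (normexp). Slc17a7, the second vesicular glutamate transporter on the list, was not well above background on either array (2.52 and 1.86), so no fold is given for it.

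The promoters of these 3 lowest transmitter genes are shown because the genes differed together, beside that of Rph3a, the member that differed most in the other direction. Each line holds the 250 bases before the gene's start in RefSeq (build GRCr8), 5′ to 3′ on the gene's strand, which is the plus strand for all 4. They lie at chr1:110348197-110348446 (Slc17a6), chr3:167686995-167687244 (Slc32a1), chr3:75777202-75777451 (Gad1) and chr12:41203312-41203561 (Rph3a). Capitals mark an E-box CAGCTG and then the closest RE1 match in Slc17a6, a TATAAA in Gad1 and the closest RE1 match in Rph3a. RE1 is the element bound by REST, a repressor of neuronal genes.
Slc17a6: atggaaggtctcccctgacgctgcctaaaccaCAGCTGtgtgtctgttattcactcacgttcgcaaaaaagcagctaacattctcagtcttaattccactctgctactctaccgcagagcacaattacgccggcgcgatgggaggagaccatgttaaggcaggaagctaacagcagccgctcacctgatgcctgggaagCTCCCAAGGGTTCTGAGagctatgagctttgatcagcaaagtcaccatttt
Slc32a1: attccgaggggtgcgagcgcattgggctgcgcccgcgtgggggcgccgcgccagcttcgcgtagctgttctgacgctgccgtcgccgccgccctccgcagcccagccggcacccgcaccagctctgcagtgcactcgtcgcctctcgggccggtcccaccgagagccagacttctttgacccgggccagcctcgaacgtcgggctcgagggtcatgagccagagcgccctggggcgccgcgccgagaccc
Gad1: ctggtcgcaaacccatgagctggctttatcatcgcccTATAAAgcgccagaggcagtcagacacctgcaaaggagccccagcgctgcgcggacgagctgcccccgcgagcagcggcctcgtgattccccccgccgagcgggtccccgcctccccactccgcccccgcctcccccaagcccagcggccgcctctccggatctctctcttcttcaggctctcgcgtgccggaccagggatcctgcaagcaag
Rph3a: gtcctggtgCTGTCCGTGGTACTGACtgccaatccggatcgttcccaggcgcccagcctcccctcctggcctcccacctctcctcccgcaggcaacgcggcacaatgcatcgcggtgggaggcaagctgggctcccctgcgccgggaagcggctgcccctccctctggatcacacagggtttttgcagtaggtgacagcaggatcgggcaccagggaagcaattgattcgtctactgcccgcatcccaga

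Promoters of 34 members were in the RefSeq table and were searched on both strands, from 250 bases before to 50 after the start. RE1 has 14 fixed or restricted positions. A match to it with at most 2 mismatches stood in 7 of them (20.6%), against 9.93% of all 33469 promoters. Of these 7, 3 (Slc17a6, Syn2 and Vamp2) belong to members lower by at least 2-fold, as do 15 of all 34. With at most 1 mismatch only Rph3a had a match, among 0.971% of all promoters, and with at most 3 mismatches 73.5% of the members and 53.6% of all promoters had one. The letters CAGCTG stood in 7 members (20.6%, against 15.1% of all), CAGATG in 4 (11.8%, against 16.6%) and TATAAA in 2 (5.88%, against 14.2%). A motif match is a description of the letters. The RNA of Rest itself had low signals, 24.0 after sevoflurane and 13.3 in the control, and its difference was 1.78, but -0.26 after quantile normalization.

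The letters TGACGTCA, the full cyclic AMP response element (CRE), stood in the promoters of Vamp1 and Syn1 (5.88% of the members, against 1.83% of all promoters), and these 2 genes are shown because they are the members that hold it. Their differences were -1.83 and 0.10, but -2.13 and -1.25 after quantile normalization and -1.89 and -1.07 after the level correction. The stretches lie on the plus strand at chr4:159698807-159698846 and chrX:3725539-3725578 (GRCr8), with the element in capitals.
Vamp1: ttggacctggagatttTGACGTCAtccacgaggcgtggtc
Syn1: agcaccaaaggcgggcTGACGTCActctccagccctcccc

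Of the fusion machinery, 4 of 6 measured members were lower by at least 2-fold and 0 were higher. Syt4, a synaptotagmin of secretory vesicles, had signals of 738.6 after sevoflurane and 16099 in the control, a difference of -3.52 (11.4-fold lower). Cplx1, a complexin that binds the assembled SNARE complex, read 172.0 and 2230, a difference of -2.77. Its relative Cplx2 read 1056 and 3945, a difference of -0.97 (-2.06 with median scaling and -1.104 with normexp), so the complexins were apart by 1.80. The vesicle SNAREs Vamp1 and Vamp2 read 101.3 and 687.7, and 2485 and 11702, with differences of -1.83 and -1.30. Stx1a, their partner SNARE in the plasma membrane, read 461.3 and 1663, a difference of -0.92. All 6 genes kept a negative difference in all 11 settings. Syt1, the main calcium sensor of fast release, was well above background in the control only (25.7, against 5.12 after sevoflurane). With the dim array set to its lowest signal counted as well above background (6.88), Syt1 was 1.96-fold lower after sevoflurane. This is an estimate, not a firm bound, because some probes above that signal were not well above background, such as Nlgn1 at 10.6.

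Among the vesicle proteins 4 of 8 were lower by at least 2-fold and 1 was higher. The glycoproteins Sv2b and Sv2a, which sit in the vesicle membrane, read 51.2 and 1347, and 401.5 and 5996, with differences of -3.79 (13.8-fold lower) and -2.97. Rab3a, a small GTPase that guides vesicles to the active zone, read 2127 and 12313, a difference of -1.60. Syn2, a synapsin that tethers vesicles to each other, was measured by 2 probes for different RefSeq transcripts: one read 25.4 and 526.6, a difference of -3.44, and the other 33.7 and 180.9, a difference of -1.49. Both Syn2 probes were lower, though by unequal amounts, and both were dim on the sevoflurane array. Syn1, by contrast, differed by 0.10 and 0.07 on its 2 probes (30.3 and 53.9, and 25.3 and 46.0), but by -1.07 after the level correction. Syp, the vesicle protein synaptophysin that is a common stain for synapses, read 126.2 and 248.3, a difference of -0.05, and Sncb, beta-synuclein, read 96.0 and 153.9, a difference of 0.25. The vesicle group therefore held both very low members and members close to the median of all genes. Syp was positive in 2 of 11 settings and Sncb negative in 4 of 11.

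Rph3a was the exception of this group. It encodes rabphilin, a protein that binds Rab3 on vesicles, and it read 356.2 after sevoflurane and 28.5 in the control, a difference of 4.57 (23.8-fold higher). Over the settings it lay between 3.07 and 4.71. The control signal was low, and its partner Rab3a differed in the other direction. Like most members, Rph3a had 1 probe with 1 spot.

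**Figure D2:**
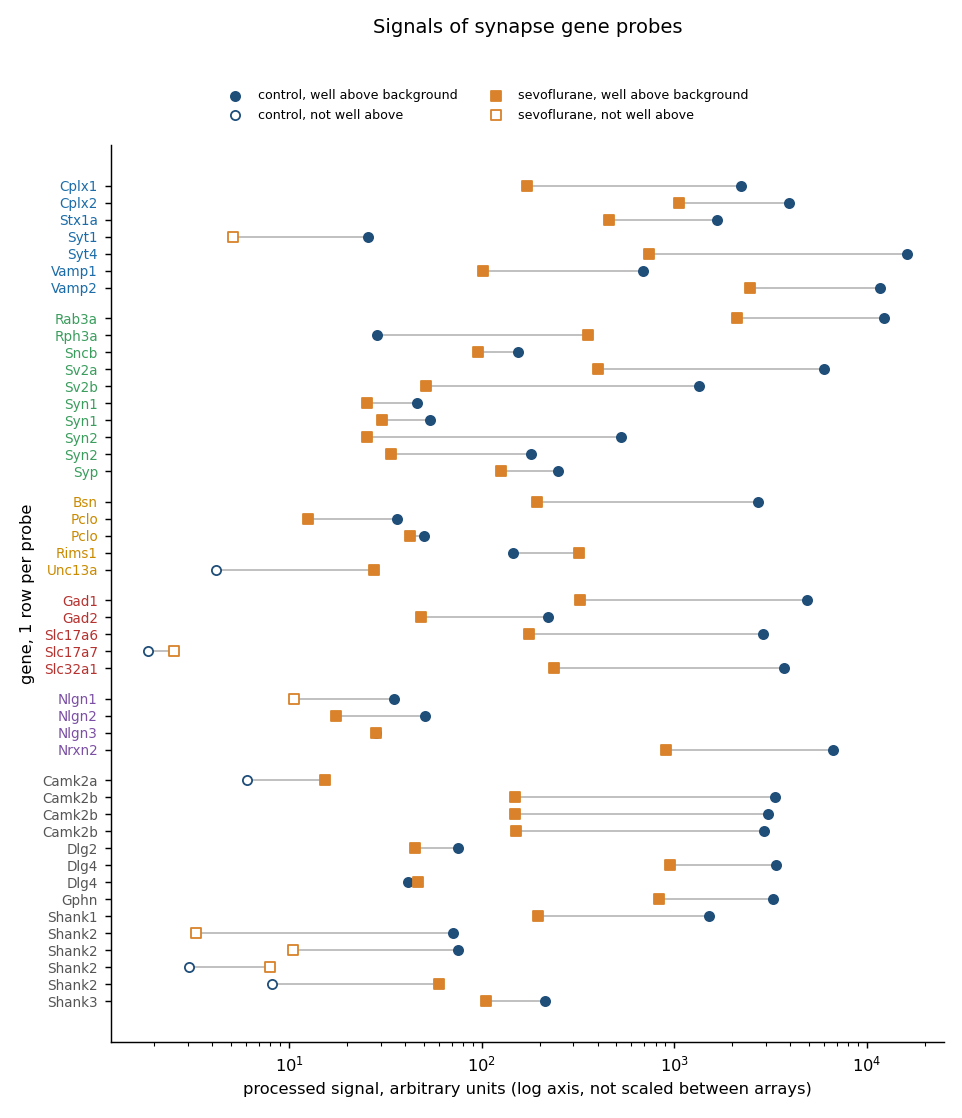
Signal of every matched probe on the control array (circles) and the sevoflurane array (squares), grouped and coloured by role, 1 row per probe; the horizontal axis is logarithmic and not scaled between arrays, and open symbols were not well above background. Most bright control probes, such as Syt4 at 16099, have their square far to the left, while Rph3a and Rims1 have it to the right; the symbols of Nlgn3 overlap at 28.3 and 28.2.

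The active zone was mixed, with 1 of 3 measured members lower and 1 higher. Bsn, the giant scaffold bassoon, read 194.4 and 2724, a difference of -2.88 (7.35-fold lower). Rims1, which links vesicles to calcium channels, read 320.6 and 145.5, a difference of 2.07 (0.98 with median scaling, and 1.93 after the level correction). Pclo, the scaffold piccolo and a relative of bassoon, differed by 0.69 on one probe (42.6 and 50.4) and by -0.61 on another (12.6 and 36.6), so its direction is not settled. Unc13a, the priming factor Munc13, was well above background after sevoflurane only (27.5, against 4.17 in the control). Against the lowest control signal counted as well above background (7.22), it was 7.26-fold higher, an estimate and not a firm bound. Only the upper-quartile scaling was used for this estimate. On this array pair 4491 probes were well above background after sevoflurane only and 396 in the control only, so a gene seen after sevoflurane alone was common.

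Of the adhesion proteins Nrxn2, a neurexin, read 911.7 and 6644, a difference of -1.93 that was at least 2-fold in all settings. Its binding partners were dim. Nlgn2, the neuroligin of inhibitory synapses, read 17.4 and 50.9, a difference of -0.61 that ranged from -2.53 to 0.47 over the settings. Nlgn3 read 28.3 and 28.2, a difference of 0.94 that was -0.51 after the level correction. Nlgn1, the neuroligin of excitatory synapses, was well above background in the control only (35.2, against 10.6). It was 1.75-fold lower, which is not a bound, because the dim signal itself was used (software error 0.39 in log2 units). Nlgn2 and Nlgn3 had no direction that all settings shared, and 1 of 3 measured adhesion genes was lower by at least 2-fold, or 2 of 3 after the level correction.

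On the postsynaptic side 3 of 6 measured members were lower by at least 2-fold and 0 were higher. Camk2b, a subunit of the calcium-dependent kinase that is abundant at excitatory synapses, had 3 probes for different transcripts, with signals of 149.5, 149.8 and 151.6 after sevoflurane and 3324, 3064 and 2936 in the control. Its differences of -3.54, -3.42 and -3.35 lay within 0.2 of each other. Camk2a, the other neuronal subunit, had low signals and was well above background after sevoflurane only (15.5, against 6.06). It was 4.08-fold higher by the same kind of estimate as for Unc13a, with the upper-quartile scaling, and other scalings were not tried. Shank1, a scaffold of excitatory synapses, read 197.1 and 1516, a difference of -2.01, while Shank3 read 105.1 and 212.3, a difference of -0.08 that was positive in 2 of 11 settings. Gphn, the gephyrin scaffold that clusters glycine and GABA receptors, read 831.8 and 3268, a difference of -1.04 that lay inside 2-fold in 4 of 11 settings. Dlg2, a scaffold of the postsynaptic density, read 45.2 and 75.2, a difference of 0.20, and -0.70 after the level correction. Scaffolds of both excitatory and inhibitory synapses were thus among the lower genes, and the size varied within a family.

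Probes disagreed for Dlg4 and Shank2. Dlg4, the best known scaffold of excitatory synapses, had a probe of 1 spot that read 949.1 and 3380, a difference of -0.90, and a probe with 10 spots for the same accession that read 46.5 and 41.3, a difference of 1.102 (spot SD 0.10 on each array). The spread between spots was far smaller than the distance between the probes, and the probes' sequences were not used here. The probe with 10 spots was dim, and its difference was close to that of dim genes in general. In the dimmest of 3 equal groups of genes by mean level the median was 1.19. For Shank2, 1 probe was seen after sevoflurane only (59.7, against 8.17, 13.9-fold higher) and 1 on neither array. Another 2 were seen in the control only (75.6 and 70.9, 3.80-fold and 5.40-fold lower). The folds of 13.9 and 3.80 rest on the dim signals themselves. That of 5.40 rests on the lowest signal counted as well above background, and none of these is a firm bound. All these folds were computed with the upper-quartile scaling only. No single value is given for Shank2. The cause of either disagreement was not tested.

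Brightness and difference were linked among the members, as they were among all genes. Of the 17 members with a control signal of at least 1000, 14 were lower by at least 2-fold and the other 3 (Cplx2, Dlg4 and Stx1a) lay between -0.97 and -0.90, with a median of -2.77 over the 17. Among all 3704 measured genes that bright in the control, 17.5% were lower and the median was -0.20. Of the 13 members with a lower control signal, 3 were lower and 2 higher, with a median of 0.10. Among all 6318 measured genes that dim in the control, 7.96% were lower and 2597 were higher, and the median was 0.67. Sorting by the mean of both arrays does not favour either array: in the brightest of 3 equal groups of measured genes 8 of 11 members were lower, against 12.6% of all genes there. In the middle group 7 of 11 were lower (15.3% of all genes) and in the dimmest 2 of 8 (6.55%).

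**Figure D3:**
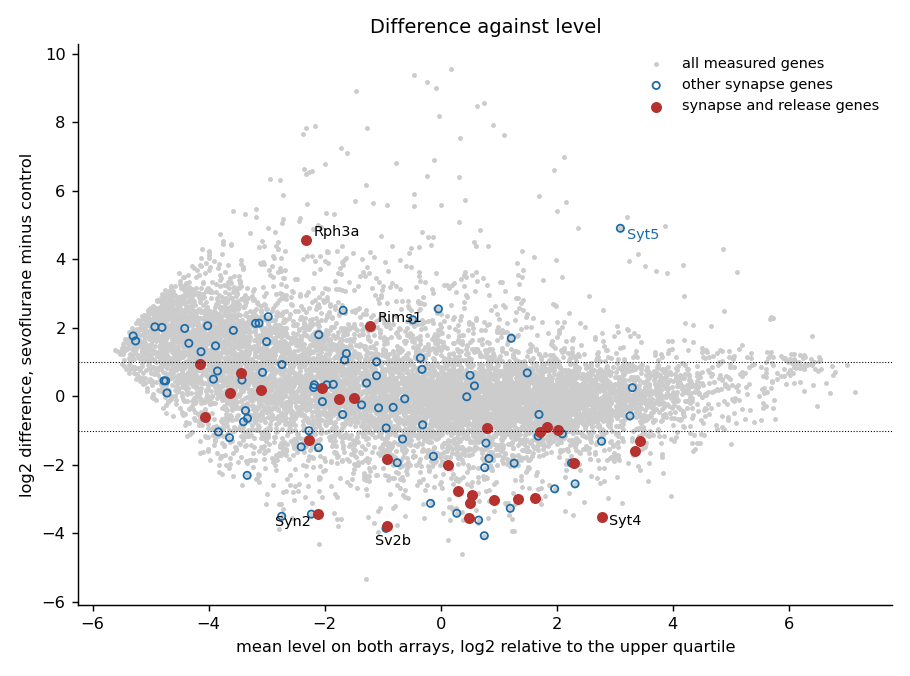
Difference (vertical axis, sevoflurane minus control, log2) against mean level on both arrays (horizontal axis, log2 relative to each array's upper quartile) for all 10022 measured genes (grey), other synapse genes (open blue circles) and the members (red). Dim genes scatter upward, where the lowest of 3 equal groups by mean level has its median at 1.19, while most members of middle and high level lie below the lower 2-fold line; Rph3a and Rims1 lie above the upper one.

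A wider list of 120 other synapse genes, with other members of the same families, adhesion proteins, recycling factors and transporters, had genes past 2-fold in both directions. Of 84 measured genes 27 were lower by at least 2-fold, against 11.5% of all measured genes, and 24 were higher, against 27.9%, and the median was 0.18. After quantile normalization 34 were lower and 10 higher. After the level correction 31 were lower and 10 higher, with a median of -0.44. Among the 8 lowest were the adhesion genes Lrfn5 at -3.85, Lrfn2 at -3.50 and Slitrk1 at -3.12, the neurexin gene Nrxn3 at -3.61, the kinase gene Camk4 at -3.44 and the vesicle gene Syngr3 at -3.41. All 8 were lower by at least 2-fold in every setting that gave a value, as were 19 of the 84 in all. Among the 4 highest were Syt5 at 4.91, the RIM gene Rims4 at 2.55 and gamma-synuclein, Sncg, at 2.51. Syt5, a synaptotagmin, read 17028 after sevoflurane and 1081 in the control and was bright on both arrays.

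The families that follow were put together after the values were seen and are a description. Nrxn2 and Nrxn3 were both lower, at -1.93 and -3.61. Several other families held genes of both signs, fewer of them after the level correction, where synapsins, neuroligins and the CaMKII genes were all negative. Sv2a and Sv2b were lower, whereas Sv2c read 33.9 and 16.3, a difference of 1.98 (0.44 after the level correction). Syt4 was lower by 3.52 while Syt5 was higher by 4.91, a span of 8.42 between the synaptotagmins. Camk2b was lower by 3.54, Camk2g lay at the 2-fold limit (53.1 and 202.7) and Camk2d, the subunit found in most tissues, differed by 0.48 (-0.58 after the level correction). Vamp1 and Vamp2 were lower while Vamp3, the VAMP of non-neuronal cells, read 1295 and 1534, a difference of 0.69 that turned to -0.40 with median scaling. Snap23, the relative of Snap25 in non-neuronal cells, differed by 0.61, and by -0.48 with that scaling. Among the Rab3 genes the difference went from -1.60 for Rab3a and -1.24 for Rab3b to -0.25 for Rab3c and -0.07 for Rab3d, which were positive in 1 and 2 of 11 settings. The active zone genes Rims1 and Rims4 were both higher, at 2.07 and 2.55, and so were Unc13b and Unc13c, at 2.14 and 1.93 (1.23 and 0.79 after the level correction).

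**Figure D4:**
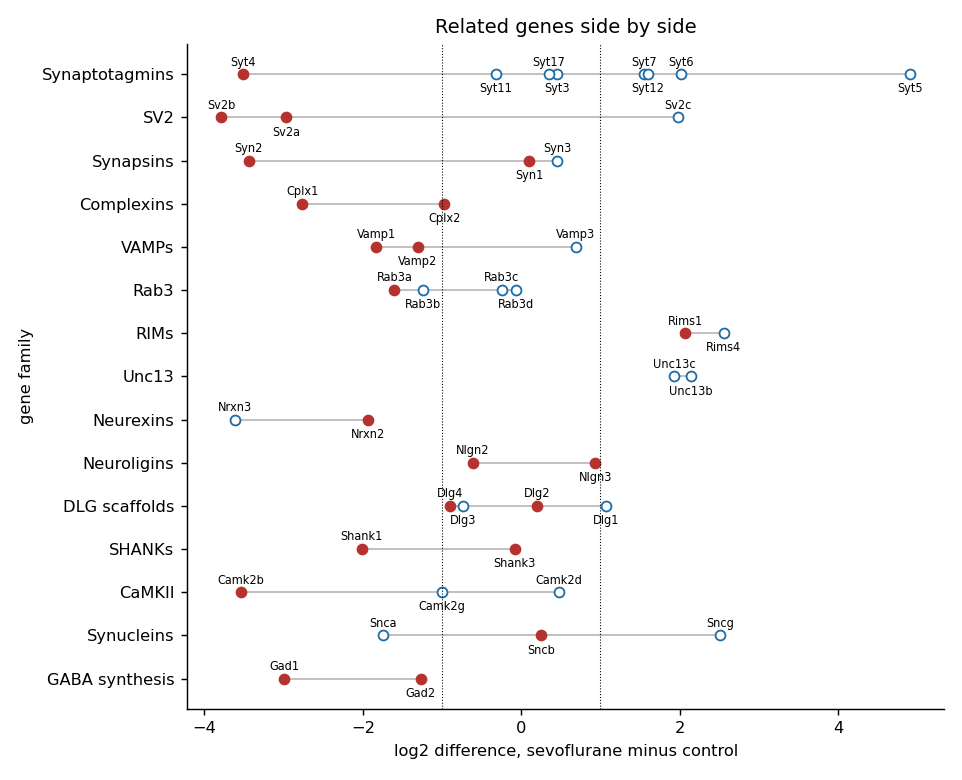
Differences (horizontal axis, sevoflurane minus control, log2) of related genes, 1 family per row, with filled red points for members and open blue points for other synapse genes; dotted lines mark 2-fold. Nrxn2 and Nrxn3 lie left of the lower line and RIM genes right of the upper one (Rims1 comes to 0.98 with median scaling), while synaptotagmins span from -3.52 to 4.91.

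Most markers of neurons outside the members moved with these results. Of 15 measured general neuronal markers 7 were lower by at least 2-fold and 1 was higher, with a median of -0.96; after the level correction 11 were lower and 0 higher. Their summed level was 89.7 after sevoflurane and 201.1 in the control, relative to each array's upper quartile, and that of the members 35.3 and 130.3. Summed levels were computed with the upper-quartile scaling only, on a linear scale, so the brightest genes weigh most in them. The tubulin gene Tubb3 read 11745 and 37910, a difference of -0.76, Uchl1 differed by -0.69 and the microtubule regulator Stmn2 by -1.06. These are the 3 brightest markers of the list, and the others varied widely, with 12 of the 15 negative. L1cam, an adhesion gene named after its value was seen, was at -3.93, below every member. Also named after the values were seen, Ina was at 1.98 (0.90 after the level correction), Map2 at 0.34, Rbfox3 at 0.09 and Nefm at -0.03. Map2, Rbfox3 and Nefm each changed sign over the settings. Markers of glutamatergic neurons were lower in 3 of 4 cases (Neurod6 at -3.36, Neurod2 at -2.34, Neurod1 at -1.17) and those of GABAergic neurons in 4 of 6 (Sst at -2.07, Dlx1 at -1.83, Dlx5 at -1.68). Summed levels were 6.43 and 35.6 for the first list and 5.18 and 15.6 for the second. Markers of both kinds of neuron were thus lower alongside the transporters of their transmitters.

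Markers of other cell types are set beside all measured genes, of which 11.5% were lower, 27.9% were higher and the median was 0.25. With the upper-quartile scaling the stem cell, astrocyte and oligodendrocyte counts below were near these shares. Their medians were 0.21, 0.09 and 0.61. Neural stem cell markers, the labelled cell type, were well above background in all 10 cases with a probe. Of these, 1 was lower and 3 were higher (0 and 2 after the level correction, 4 and 0 with median scaling). Sox2 was at -0.85, Fabp7 at -0.46 and Vim at 0.91 (-0.18 with median scaling). The summed level was 99.98 and 76.0, in which Vim weighed most (log2 level 6.19 and 5.28). Fabp7, the next brightest, had log2 levels of 3.43 and 3.89. Microglial markers were lower in 5 of 8 cases (C1qa at -3.46, Tyrobp at -3.27, C1qb at -0.96; summed level 3.39 and 16.8). Red cell markers were higher in all 6 (Hba-a1 at 3.38, Alas2 at 3.29, Hbb at 2.31, summed level 141.0 and 25.6). Globin genes have near-identical copies, such as Hba-a1 and Hba-a2, that cannot be told apart with certainty. The 7 measured astrocyte markers (Gja1 at 0.09, of the other sign with median scaling, Aldoc at -0.13, but 0.06 after the level correction, and Slc1a3 at -1.72; summed level 12.6 and 14.7) and the 8 of the oligodendrocyte lineage (Cnp at -0.34, Pdgfra at 0.40, but -0.68 with median scaling, and Olig1 at -1.42; summed level 6.67 and 6.75) were lower in 1 case each and higher in 2. That balance turned with the scaling: after the level correction 3 astrocyte markers were lower and 0 higher, and 1 oligodendrocyte marker was lower and 1 higher. Endothelial markers were higher in 2 of 2 (Cldn5 at 2.63, Flt1 at 2.59, but 0.90 after the level correction and 0.56 after quantile normalization, where 1 of 2 was higher; summed level 0.28 and 0.05) and mesenchymal ones in 2 of 4 (Pdgfrb at 1.40, Col1a2 at 0.35 and Col3a1 at 0.31, of which the last 2 were negative in 4 of 11 settings; summed level 61.5 and 47.7). The part of these other cells in the values of the members was not tested. Each array also had a scan day of its own, and the effects of scan day and treatment cannot be told apart.

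**Figure D5:**
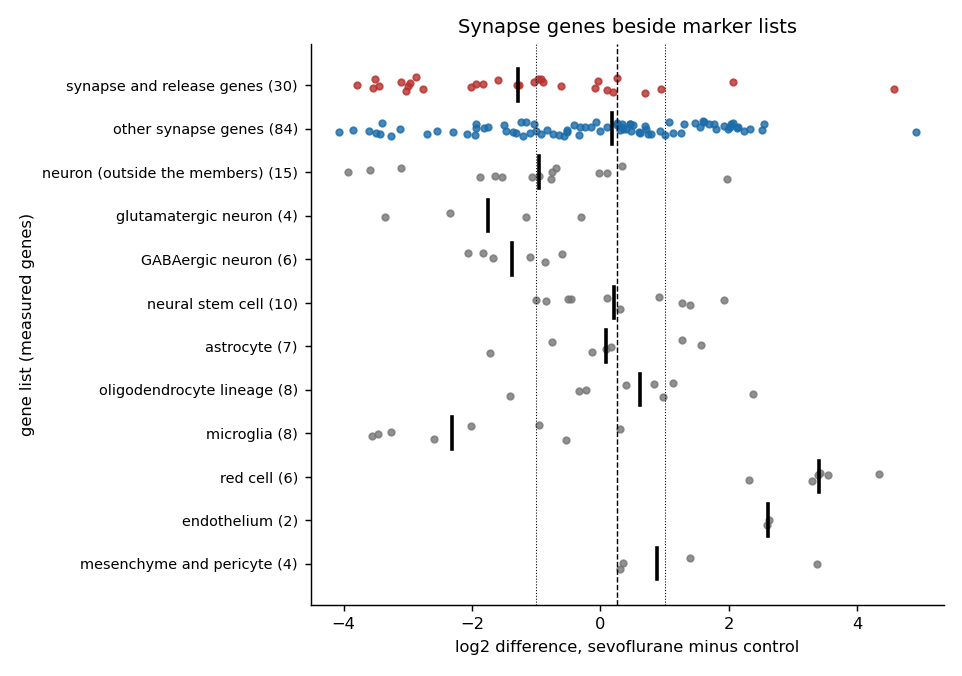
Differences (horizontal axis, sevoflurane minus control, log2) of single genes in each list, with the number of measured genes in brackets, black bars at the medians, dotted lines at 2-fold and a dashed line at the median of all genes (0.25). The members (median -1.29), neuronal lists and microglia lie to the left, red cell markers (median 3.40) to the right; points are spread vertically for visibility only.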

How the data were processed

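Members and gene lists were chosen with earlier results of these data known, and the named genes by a written rule: all members, the 8 lowest and 4 highest other synapse genes, the 3 markers per list of highest mean level, and Rest; others are said to be chosen later, and a few genes the rule names are not reported here. The deposited scanner output gives the intensity of each spot, linear and background-subtracted by the software; the submitters' processing notes name Agilent Feature Extraction 11.0.1.1. Of 42136 non-control spots, 521 (sevoflurane) and 580 (control) were flagged and left out; 0 were saturated. Log2 processed signals of a probe's spots were averaged and the array's 75th percentile over probes was subtracted. A probe was measured when most usable spots were well above background on both arrays; a gene took its measured probe of highest mean level. Names came from RefSeq accessions in a GRCr8 gene table, without versions. Alternatives used limma 3.58.1 in R 4.3.3: quantile normalization, median scaling, the percentile over measured probes, normexp (offset 50, on median signals, as the files used here give no mean signal), a loess of difference on level (span 0.3, called the level correction), other filters (none, or a signal of at least 50), spot and probe rules, and the authors' deposited log2 table (correlations of 0.991 and 0.993 with log2 signals over 24431 probes, column medians 5.61 and 5.60; how it was scaled and centred is unknown). The calculation was tested on copies of the control array with added noise and known changes in some probes. That test did not mimic the different signal distributions of the real arrays. With 1 array per group, the number of arrays limits the precision.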

Additional observations from a re-analysis of the deposited data

How the results depend on the processing

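All 17 members lower by at least 2-fold kept a negative difference under each of the 10 alternatives that gave a value, and 15 stayed past 2-fold in each; Gad2 and Gphn did not. No member past 2-fold changed sign. The alternatives overlap and are not independent checks. A gene with 1 probe keeps its value under the filters, where it has one, and under the probe mean. The median of spots moved members measured by 1 spot only by the same small amount (Syt4 from -3.52 to -3.50). Median scaling and the percentile over measured probes shift all genes by the same amount. For these members the deposited values lay close to those after quantile normalization. The members' median was -1.84 after quantile normalization, -2.37 with median scaling, -1.15 with the percentile over measured probes, -1.73 after the level correction, -1.84 in the deposited table, -1.16 without a filter (36 genes) and -1.88 with signals of at least 50 (22 genes). The median of all genes moved as well, to -0.10, -0.84, 0.39, -0.00 and -0.10 under the first 5. The count of higher members was 1 with median scaling, 5 without a filter and 1 with signals of at least 50. For the other synapse genes, 41 were lower with median scaling, and the higher ones numbered 10 after quantile normalization, after the level correction, in the deposited table and with signals of at least 50, 7 with median scaling and 37 without a filter. Their median was -0.64, -0.91, 0.32, -0.44 and -0.64 under the first 5 settings above, 0.32 without a filter and -0.28 with signals of at least 50. Of the adhesion genes 2 were lower after quantile normalization, median scaling, the level correction and in the deposited table, and of the postsynaptic genes 5 with median scaling. Fewer or more genes tested is part of the filter settings; the cause of the other shifts was not tested. Nlgn2, Nlgn3, Syn1, Dlg2 and Pclo had low signals and changed sign. No paired analysis was possible because each group has 1 array.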
